A study of Rattus norvegicus and Mus musculus with 24 samples.

Results

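The 41 genes described here are the classical markers of vascular and lymphatic endothelium together with the ligands, receptors and transcription factors of angiogenesis. They were chosen by name for these known roles, with earlier results of these data known, and read by symbol in the kidneys of cystinosin-deficient mice and rats. All 41 were found among the 17376 symbols of the mouse table. In the rat table, with 14931 symbols, 38 were found, and PECAM1, MMRN2 and PROX1 were not analysed there.

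Cystinosin, encoded by Ctns, carries cystine out of lysosomes, and its loss causes the storage disease cystinosis, in which the proximal tubule fails early. Bulk RNA sequencing was done on 4 Ctns KO and 4 Ctns WT mice (C57BL/6 background) and on 8 Ctns KO and 8 Ctns WT rats (Sprague-Dawley background), each control being a littermate of the knockout line. The knockouts are whole-animal lines, so that loss of Ctns in the endothelium and in other cells cannot be told apart here. The labels of the 24 libraries give no treatment, age or sex, and animals were matched for age and sex. The study's text gives an adult age for a transcriptome of mouse tubule segments, which the labels do not tie to these libraries. The rats are numbered 17 to 24 and 25 to 32, with 4 animals of each genotype in each range. The labels do not say what the ranges stand for, so both were analysed separately as well as together.

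The labels name both kidney cortex and proximal tubule cells, and the study's methods name cortex for the RNA sequencing. Microdissected tubules are named there for a separate microarray. The endothelial markers PECAM1 and CDH5 and the podocyte markers were present in every mouse library, so the tissue held more than tubule cells. The summed scaled value of 13 podocyte genes was 25.2 to 27.5 in WT mice, against 35.4 to 36.95 for the 41 endothelial and angiogenic genes and 599 to 723 for 15 proximal tubule genes. In such bulk samples, fewer cells of a type and less RNA per cell cannot be told apart.

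Endothelial cells line the vessels and, in the kidney, form the fenestrated capillaries of the glomerulus and the peritubular network that feeds the tubules. They depend on vascular endothelial growth factor A (VEGFA), which podocytes and tubule cells release and which acts through the receptors KDR and FLT1. Angiopoietin 1 (ANGPT1), made by cells around the vessel, keeps the endothelium quiescent through the receptor TEK, while ANGPT2, made by the endothelium itself, opposes it.

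Library totals ran from 19309371 to 44449845 reads in the mice and from 24684097 to 40629873 in the rats. Mouse levels are given as scaled values, in which 1 is the 75th percentile of the library, and rat levels as normalised CPM, counts scaled to library size, after TMM scaling, a correction for differences in library composition. Mouse genes were tested with limma on log2(scaled value + 0.1), a scale that understates the change of low genes. Rat genes were tested with the quasi-likelihood test of edgeR. All adjusted p-values are Benjamini-Hochberg values over every symbol tested, and a gene was called when its adjusted p was under 0.05. Errors on log2 fold changes are standard errors.

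The Ctns transcript itself, checked first, was lower in KO mice, with 0.319 to 0.342 against 0.824 to 1.03 in WT mice and no overlap. In rats Ctns was 16.8 to 22.2 CPM in KO and 19.2 to 27.8 CPM in WT animals, a log2 fold change of -0.22 ± 0.08 that missed the threshold (adjusted p = 0.0511, edgeR). It was called lower in rats 25 to 32 (-0.32 ± 0.11, adjusted p = 0.0391) and not in rats 17 to 24 (-0.11 ± 0.08, adjusted p = 0.514), and the ranges of the genotypes overlapped over all rats. The rat genotypes are therefore taken from the labels, which the transcript level does not separate.

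Levels of different genes can be compared only per length, which the mouse annotation allowed (GENCODE vM21, mm10 build). In WT mice VEGFA was the most abundant of the 41, with an RPKM (reads scaled to exon length and library size) of 87.6 ± 2.71 (SD, n = 4). PLVAP, which forms the diaphragms of fenestrae, followed with 82.2 ± 8.40, and the ranges of these 2 genes overlapped. The TGF-beta co-receptor endoglin (ENG) came next with 29.9 ± 2.02. TEK, endomucin (EMCN) and PECAM1 lay together at 15.6 ± 1.51, 15.3 ± 0.989 and 15.03 ± 0.840, differing by less than their SD. KDR had 12.2 ± 1.11 and CDH5, the cadherin of endothelial junctions, 11.1 ± 0.321.

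At the low end stood genes of specialised endothelium. The lymphatic receptor LYVE1 had 0.130 ± 0.0531, and P-selectin (SELP), stored for release on activation, 0.0701 ± 0.0236. The clotting protein VWF, typical of larger vessels, had only 0.281 ± 0.0178. Measurement was correspondingly shallow for the lymphatic and activation genes.

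**Figure D1:**
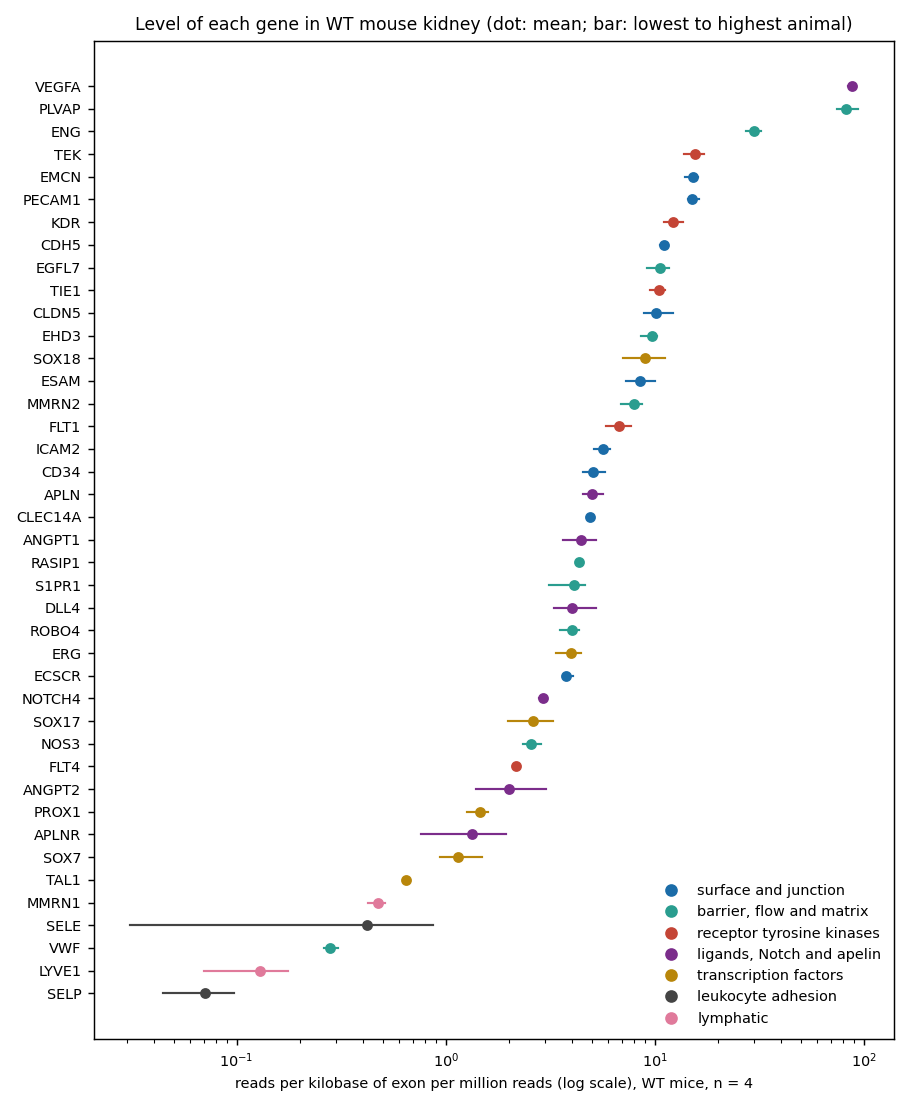
Level of each of the 41 genes in WT mouse kidney, in RPKM on a log axis; dots are means, bars run from the lowest to the highest of 4 animals, and colours mark the role. VEGFA and PLVAP lie above 70 and SELP is lowest, with a mean of 0.0701.

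Promoter sequence, which the choice of genes did not use, was searched for 4 motifs. Of the 41, 25 had a rat promoter sequence in the RefSeq table (GRCr8 build), each covering 250 bases before and 50 bases after the start. The letters CAGGAAG, a site for ETS factors such as ERG, were present on either strand in 9 of these 25 genes (36.0%), against 13.4% of 27457 symbols with a promoter of the same length. The 9 were APLN, EGFL7, EHD3, EMCN, ERG, LYVE1, MMRN1, PLVAP and ROBO4. The share was 8.0% against 12.6% for AACAAT, the core bound by SOX factors. It was 8.0% against 7.57% for the letters GATAAG of GATA factors. The forkhead letters TGTTTAC were in 0 of 25, against 4.13%. A match of letters is a description of the window and not evidence of binding.

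Of the members past the threshold in a rat genotype comparison, 11 in all, 6 had a promoter in the table and only EMCN held CAGGAAG. Shown are 60 bases before the start of EMCN, of the factor ERG itself, and of PLVAP, EGFL7 and ROBO4, each 5′ to 3′ on the gene's strand, with CAGGAAG or its reverse complement in capitals.
EMCN, chr2:228564289-228564348 (plus strand): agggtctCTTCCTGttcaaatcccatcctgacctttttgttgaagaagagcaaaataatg
ERG, chr11:48251618-48251677 (minus strand): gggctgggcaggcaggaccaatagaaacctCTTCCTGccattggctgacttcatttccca
PLVAP, chr16:18231349-18231408 (minus strand): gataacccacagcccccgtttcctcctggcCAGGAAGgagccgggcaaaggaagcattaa
EGFL7, chr3:29805480-29805539 (plus strand): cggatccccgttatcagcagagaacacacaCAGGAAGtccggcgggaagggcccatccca
ROBO4, chr8:45308659-45308718 (plus strand): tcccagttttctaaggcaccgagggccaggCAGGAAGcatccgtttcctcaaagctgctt
The site lay 81 bases before the start in ERG, 99 in PLVAP, 121 in EGFL7 and 50 in ROBO4, and 243 in EMCN, counted from its first base. These 5 genes did not move together. EMCN was called lower in KO rats of both ranges after TMM scaling, though not by library totals. None of the other 4 was called in any genotype comparison in which it was tested.

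In mice, none of the 41 genes was called between Ctns KO and Ctns WT kidneys by limma, against 4.71% of 17376 symbols. At an unadjusted p under 0.05 there were 10 of the 41 (24.4%), against 18.6% of all symbols. edgeR on the recovered reads called 4, with CD34 higher and ANGPT1, EHD3 and KDR lower, against 8.91% of the symbols it tested, and limma restricted to symbols with enough reads called 3, against 8.79%. The log2 fold change was negative in 31 and positive in 10, with a median of -0.06 against 0.00025 over all symbols. With log2(CPM + 1) it was negative in 22 and positive in 19, with a median of -0.01 against 0.04. The 95% interval lay within ±0.5 for 36 of the 41 and within ±1 for all 41. For the lowest genes the added 0.1 alone keeps the interval narrow: SELP had an RPKM of 0.0701 in WT and 0.181 in KO mice, and SELE 0.419 and 0.212, with log2 values on the tested scale of only 0.12 and -0.15. The sum of the 41 scaled values was 31.5 to 33.9 in KO mice and 35.4 to 36.95 in WT mice. Without VEGFA it was 25.5 to 26.8 against 27.4 to 28.9. The genotypes did not overlap on this scale, but by library totals KO mouse 8 lay above WT mouse 1 in both sums.

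VEGFA, its receptors and the angiopoietins are given first. The scaled value of VEGFA was 7.69, 6.30, 6.01 and 7.13 in KO mice 3, 5, 6 and 8, and 7.96, 8.08, 8.16 and 7.72 in WT mice 1, 2, 4 and 7. The groups did not overlap on this scale, but KO mouse 3 lay next to the lowest WT mouse. Scaled to library totals instead, KO mouse 3 (381 CPM) was above WT mice 1, 2 and 7 (362 to 377 CPM). The log2 fold change was -0.24 ± 0.08 (adjusted p = 0.149, limma).

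KDR, the main signalling receptor of VEGFA, had 1.70, 1.92, 1.74 and 1.97 in the KO mice and 2.11, 2.66, 2.35 and 2.25 in the WT mice. Every KO mouse was below every WT mouse, and the log2 fold change of -0.33 ± 0.08 came close to the threshold without passing it (adjusted p = 0.0590, limma). FLT1, which binds VEGFA tightly and limits it, overlapped, at 1.56 to 1.82 in KO and 1.66 to 2.22 in WT mice (-0.15, interval -0.36 to 0.06).

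ANGPT1 was 0.373, 0.369, 0.378 and 0.390 in the KO mice and 0.400, 0.467, 0.525 and 0.581 in the WT mice. The KO animals were tightly grouped below the lowest WT animal on this scale, while by library totals KO mouse 8 (19.4 CPM) was above WT mouse 1 (18.9 CPM), and the log2 fold change was -0.30 ± 0.09 (adjusted p = 0.112, limma). Its receptor TEK was 1.41 to 1.57 in KO and 1.38 to 1.76 in WT mice, a log2 fold change of -0.04 with an interval of -0.22 to 0.13.

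No difference was called for the general endothelial markers. PECAM1 was 1.97, 2.09, 2.01 and 1.81 in the KO mice and 1.93, 2.19, 1.88 and 1.97 in the WT mice, with a log2 fold change of -0.02 and an interval of -0.16 to 0.12. CDH5 was 0.834 to 0.974 in KO and 0.938 to 1.03 in WT mice (-0.11, interval -0.23 to 0.01). CD34, a sialomucin of capillary endothelium and of stem and stromal cells, stood on the other side, with 0.915 to 0.994 in KO and 0.694 to 0.911 in WT mice (0.27 ± 0.07, adjusted p = 0.0949, limma).

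**Figure D2:**
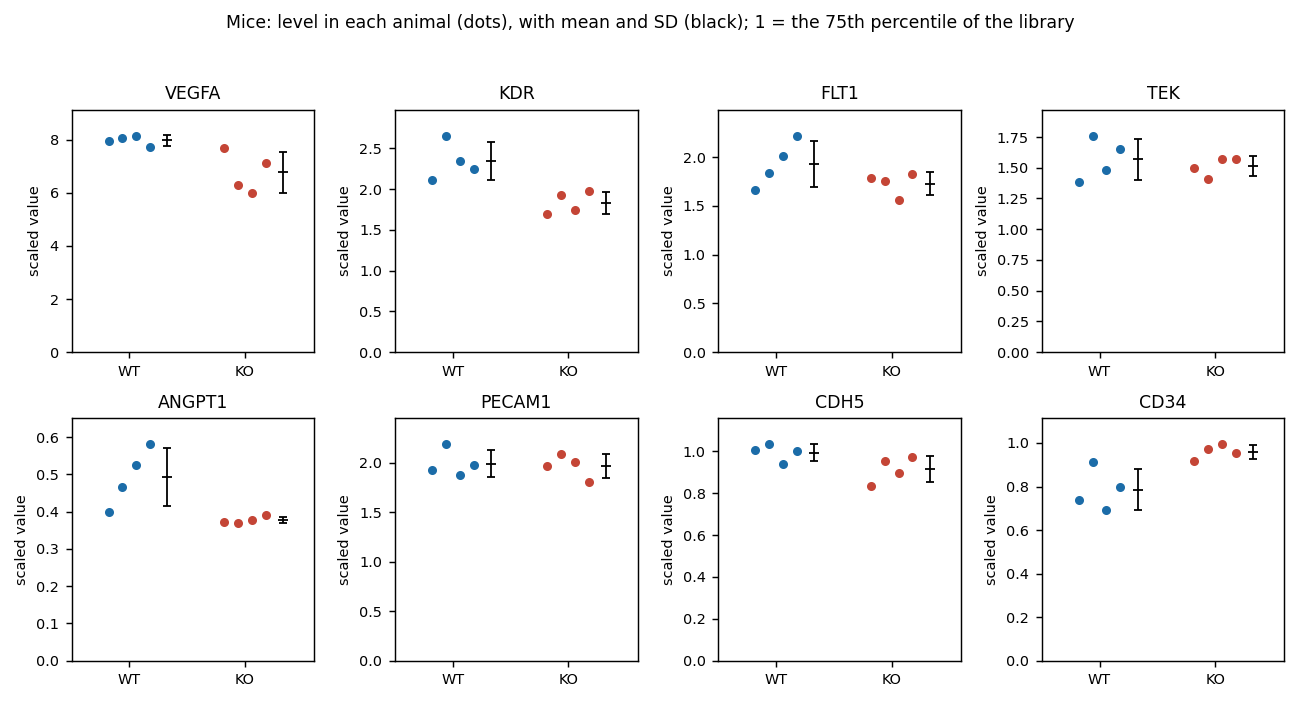
Scaled value of 8 genes in each mouse (dots), with the mean and SD of 4 animals per genotype in black. On this scale all 4 KO mice lie below the WT mice for VEGFA, KDR and ANGPT1 and above them for CD34, and for PECAM1 and TEK the genotypes overlap.

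Among the remaining mouse genes, ECSCR, a surface protein of endothelial cells, did not overlap between genotypes and was higher in KO mice (0.16 ± 0.04, adjusted p = 0.0943), and CLEC14A, another one, was lower (-0.14 ± 0.03, adjusted p = 0.0670). Without overlap on the scaled values were 6 of the 41 genes, 2 higher and 4 lower, of which VEGFA and ANGPT1 overlapped by library totals, while 7.66% of all symbols were higher and 3.92% lower without overlap. ENG (-0.20), EHD3 (-0.24), a membrane trafficking protein of glomerular endothelium, and SOX18 (-0.27) had intervals below 0 but adjusted p-values from 0.125 to 0.209 by limma. Only the interval of the apelin receptor APLNR, from -0.06 to 0.68, reached above 0.5. SELE and SELP, the selectins that capture leukocytes, and LYVE1 were so low that a modest change was not detectable at this depth.

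In all 16 rats, 3 of the 35 genes tested were called (8.57%), against 27.5% of 11584 symbols. ESAM, a junctional adhesion molecule, was higher in KO rats, and ANGPT1 and the receptor TIE1 were lower. The median log2 fold change over the 35 was -0.02, the same as that over all symbols. Of the 38 genes in the rat table, 3 were not tested here: CD34 was listed at 0 reads in every rat, ROBO4 had 4 to 13 reads and SELE 1 to 25. The entries of ROBO4 were not whole numbers in 6 rats and those of CLDN5 in 7, and they were rounded.

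The 2 number ranges gave unlike counts. For rats 17 to 24, 1 of 35 genes was called, against 7.26% of 11610 symbols. Among rats 25 to 32, 11 of 36 were called (30.6%), 4 higher and 7 lower, against 43.8% of 11633 symbols. In all 3 rat comparisons of genotype the share of members called was below that of all symbols, a difference that was not tested. One of the 11, SELE, passed the filter on low counts only through the KO rats, which leaves 10 of 35 without it. Over rats 25 to 32 its median log2 fold change was -0.05, against -0.01 for all symbols.

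Scaling matters for these values. KO rats 25 to 32 had TMM factors of 1.004 to 1.08 and WT rats of that range 0.888 to 0.951, so that dividing by library totals alone raised the median of all symbols to 0.15 in this comparison. Without TMM factors ESAM, CLDN5, SELE and SELP stayed called as higher and ANGPT1 as lower, ECSCR became called as higher, and EMCN, KDR, SOX7, TIE1, VEGFA and VWF kept a negative sign but were no longer called. In these libraries, the summed level of 13 proximal tubule genes was 17958 to 22353 CPM in KO rats 25 to 32 and 34278 to 38490 CPM in their WT controls. The part of this fall in the scaling was not tested.

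**Figure D3:**
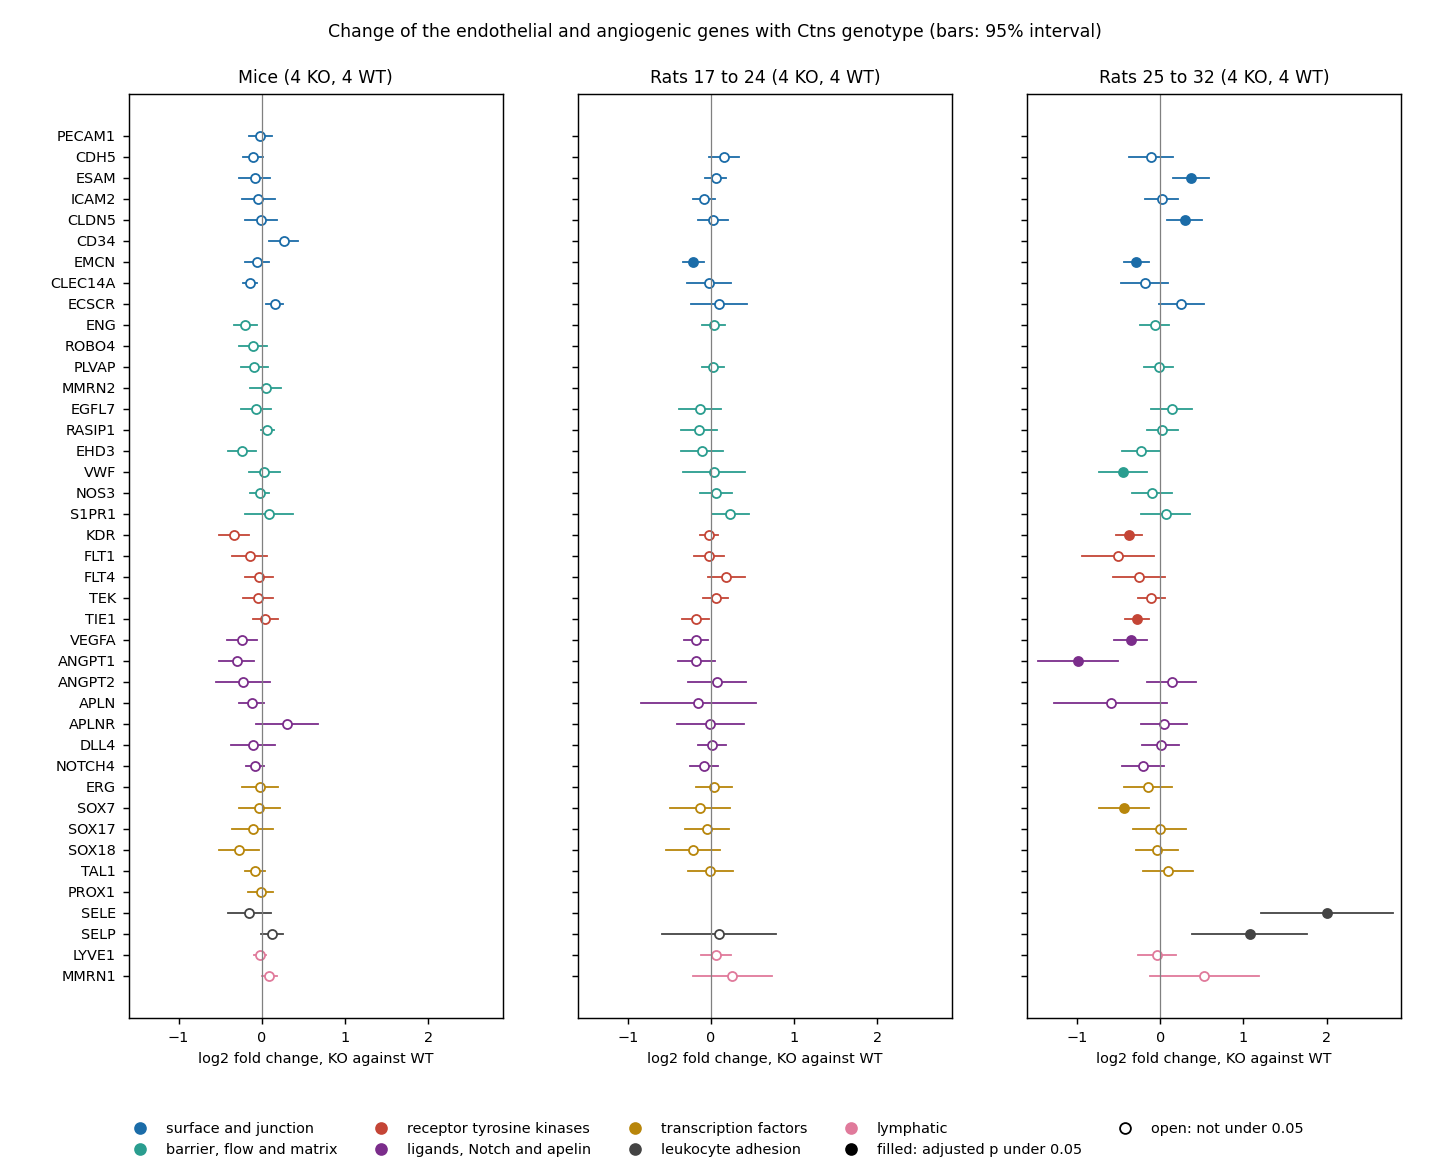
Log2 fold change of each gene in Ctns KO against Ctns WT animals, with 95% intervals, in mice, rats 17 to 24 and rats 25 to 32 (4 KO and 4 WT each); filled dots have an adjusted p under 0.05 and colours mark the role. No dot is filled in mice, 1 is filled in rats 17 to 24 and 11 are filled in rats 25 to 32, where ANGPT1 lies at -0.98 and SELE, which passed the filter only through the KO rats, at 2.01.

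Of the ligands, ANGPT1 had the largest fall. In rats 25 to 32 it was 17.1, 10.3, 16.6 and 10.5 CPM in KO animals 26, 28, 30 and 32, and 25.1, 37.4, 21.2 and 24.7 CPM in WT animals 25, 27, 29 and 31. All 4 KO rats were below all 4 WT rats, and WT rat 27 was far above the rest. The log2 fold change was -0.98 ± 0.22, a fold of 0.506 (adjusted p = 0.00448, edgeR).

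ANGPT1 in rats 17 to 24 was 20.03, 15.6, 20.7 and 15.3 CPM in KO and 19.1, 20.2, 20.2 and 21.9 CPM in WT animals. These groups overlapped (-0.18 ± 0.10, adjusted p = 0.380, edgeR). Over all 16 rats the log2 fold change was -0.59 ± 0.16 (adjusted p = 0.0118), and the call was kept in all 16 fits that left out 1 rat. The difference between the ranges, -0.81 ± 0.26, just missed the threshold (adjusted p = 0.0507, edgeR interaction).

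VEGFA fell in rats 25 to 32, from 413, 334, 382 and 373 CPM in WT to 280, 270, 334 and 285 CPM in KO rats. KO rat 30 overlapped the lowest WT rat. The log2 fold change was -0.35 ± 0.09 (adjusted p = 0.00860, edgeR). Values in rats 17 to 24 were 408 to 451 CPM in KO and 432 to 533 CPM in WT animals (-0.18 ± 0.07, adjusted p = 0.136).

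The remaining ligands and their receptors were not called between genotypes. ANGPT2 was at 0.14 in rats 25 to 32 (interval -0.15 to 0.43) and -0.23 in mice (interval -0.55 to 0.10). Apelin (APLN) had a wide interval in rats 25 to 32, -1.28 to 0.09, around -0.60, whereas its receptor APLNR was at 0.05. The Notch ligand DLL4 was at 0.00 and the endothelial receptor NOTCH4 at -0.21 (interval -0.45 to 0.04).

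Of the receptor tyrosine kinases, KDR was the 1 gene of 37 tested whose change was called different between the ranges, against 14.7% of 11839 symbols. At an unadjusted p under 0.05 there were 7 of 37 (18.9%), against 32.4% of all symbols. Rats 17 to 24 had KDR at 161, 150, 159 and 157 CPM in KO and 157, 166, 154 and 165 CPM in WT animals, with full overlap (-0.02 ± 0.05). Rats 25 to 32 had 113, 95.2, 111 and 103 CPM in KO and 140, 137, 143 and 129 CPM in WT animals, with no overlap (-0.37 ± 0.07, adjusted p = 0.00199, edgeR). The difference was -0.34 ± 0.08 (adjusted p = 0.0114, edgeR interaction). It was kept in all 16 fits that left out 1 rat, and was -0.20 with an adjusted p of 0.142 by edgeR without TMM factors. Scaled to library totals instead, KO rats 26 and 30 lay above WT rat 31, so that the genotypes of rats 25 to 32 overlapped.

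TIE1, an orphan partner of TEK, was 78.3, 76.0, 73.6 and 83.5 CPM in KO and 88.1, 99.7, 90.6 and 100.0 CPM in WT rats 25 to 32. There was no overlap on this scale (-0.28 ± 0.06, adjusted p = 0.00620, edgeR), but by library totals KO rat 32 lay above WT rat 25. Rats 17 to 24 had 84.9 to 98.6 CPM in KO and 94.95 to 117 CPM in WT animals, with overlap (-0.18 ± 0.07, adjusted p = 0.166). Over all 16 rats it was -0.23 ± 0.07 (adjusted p = 0.0213), and this call was lost without WT rat 31, without KO rat 32 and, at -0.14 with an adjusted p of 0.201 by edgeR, without TMM factors.

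FLT1 spread more and missed the threshold. It was 37.01, 24.8, 41.4 and 22.2 CPM in KO and 46.1, 53.1, 43.9 and 36.5 CPM in WT rats 25 to 32 (-0.51 ± 0.20, adjusted p = 0.0551, edgeR). KO rats 26 and 30 overlapped the WT animals, and DESeq2 called the gene lower. TEK was 62.5 to 72.8 CPM in KO and 68.4 to 78.2 CPM in WT animals (-0.11, interval -0.27 to 0.06), and FLT4, the receptor of lymphatic growth, was at -0.25 (interval -0.57 to 0.06).

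Of the surface and junction genes, EMCN, a sialomucin of capillaries and veins, was lower in both ranges. Among rats 17 to 24 it was 91.4, 97.1, 84.9 and 83.6 CPM in KO and 104, 103, 110 and 99.0 CPM in WT animals, without overlap (-0.21 ± 0.06, adjusted p = 0.0466, edgeR). Among rats 25 to 32 it was 69.1, 68.5, 68.7 and 71.4 CPM in KO and 80.8, 77.3, 86.3 and 96.0 CPM in WT animals, again without overlap (-0.29 ± 0.07, adjusted p = 0.00727). The call in rats 17 to 24 was lost in 6 of the 8 fits that left out 1 rat, those without WT rats 17, 19 and 21 and KO rats 18, 22 and 24. Without TMM factors both calls were lost. EMCN was then at -0.20 in rats 17 to 24 (adjusted p = 0.0818, edgeR) and -0.12 in rats 25 to 32 (adjusted p = 0.110, edgeR). By library totals the genotypes overlapped in both ranges.

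ESAM went the other way. In rats 25 to 32 it was 51.1, 55.6, 45.3 and 42.0 CPM in KO and 33.9, 37.4, 41.1 and 38.4 CPM in WT animals, without overlap (0.37 ± 0.10, adjusted p = 0.0105, edgeR). The values of rats 17 to 24 were 39.3 to 42.8 CPM in KO and 37.2 to 41.9 CPM in WT animals (0.06 ± 0.06, adjusted p = 0.660). Over all 16 rats it was 0.21 ± 0.07 (adjusted p = 0.0337), and this call was lost without any 1 of WT rats 23 and 27 and KO rats 26, 28 and 30.

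CLDN5, the sealing claudin of endothelial tight junctions, was 10.7, 11.7, 10.3 and 10.3 CPM in KO and 9.35, 9.29, 8.22 and 8.35 CPM in WT rats 25 to 32. The genotypes did not overlap (0.29 ± 0.10, adjusted p = 0.0318, edgeR), but all 8 animals were below the 12.8 to 15.7 CPM of the KO and the 13.1 to 14.7 CPM of the WT rats 17 to 24. The call was lost in 4 of 8 fits, those without WT rats 29 and 31 and KO rats 26 and 28.

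CDH5 overlapped in both ranges, at 15.7 to 19.9 CPM in KO and 16.3 to 21.995 CPM in WT rats 25 to 32 (-0.11, interval -0.37 to 0.15). ICAM2, a ligand for leukocyte integrins, was at 0.02 (interval -0.18 to 0.21). CLEC14A was at -0.19 and ECSCR at 0.25, neither called. Junction and surface genes of the list therefore did not share a direction in rats 25 to 32.

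Among the genes of barrier, flow and matrix, only VWF was called. It was 68.6, 67.5, 65.3 and 83.3 CPM in KO and 97.5, 80.1, 87.5 and 125 CPM in WT rats 25 to 32 (-0.45 ± 0.13, adjusted p = 0.0173, edgeR). KO rat 32 overlapped the WT animals, and the call was lost without KO rat 28. VWF in rats 17 to 24 was 65.3 to 87.6 CPM in KO and 54.2 to 89.8 CPM in WT animals (0.04 ± 0.16).

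PLVAP was at -0.02 in rats 25 to 32 (interval -0.19 to 0.15), ENG at -0.06 (interval -0.24 to 0.11) and the endothelial nitric oxide synthase NOS3 at -0.10 (interval -0.34 to 0.14). EGFL7, a secreted matrix protein, was at 0.14, RASIP1, needed for vessel lumens, at 0.03, and S1PR1, the receptor that tightens the barrier, at 0.07. EHD3 was at -0.23 with an adjusted p of 0.0958 by edgeR.

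Of the transcription factors, SOX7 was called in rats 25 to 32, with 2.79, 2.58, 3.09 and 2.95 CPM in KO and 4.02, 3.57, 4.41 and 3.53 CPM in WT animals (-0.44 ± 0.14, adjusted p = 0.0261, edgeR). The groups did not overlap on this scale, but by library totals KO rat 30 lay above WT rat 31. The call was lost without any 1 of WT rats 25 and 29 and KO rats 26 and 28. Its relatives SOX17 and SOX18 were at -0.01 and -0.04. ERG, which maintains endothelial identity, was at -0.14 (interval -0.43 to 0.15) and TAL1, shared with blood cells, at 0.10.

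The selectins were at very low levels. SELE, made by endothelium on inflammatory activation, had 25, 13, 25 and 23 reads in KO and 4, 5, 4 and 8 reads in WT rats 25 to 32, that is 0.776, 0.442, 0.766 and 0.928 against 0.149, 0.129, 0.151 and 0.297 CPM. The genotypes did not overlap. The log2 fold change of 2.01 ± 0.36 is given as a description, since SELE entered the test in this range only through the reads of the KO rats. SELE was not tested in rats 17 to 24, where it had 6 to 12 reads in KO and 1 to 5 reads in WT animals, which did not overlap either.

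SELP was 1.18, 1.29, 0.919 and 0.888 CPM in KO and 0.596, 0.233, 0.603 and 0.668 CPM in WT rats 25 to 32, without overlap (1.08 ± 0.31, adjusted p = 0.0177, edgeR). Platelets also hold P-selectin. Of 7 platelet and red cell genes tested, none was called higher and ITGA2B was lower in these KO rats (-0.40 ± 0.09), and the part of platelets in the SELP level was not tested. SELP in rats 17 to 24 was 0.458 to 0.735 CPM in KO and 0.354 to 0.765 CPM in WT animals (0.10 ± 0.31). The lymphatic genes LYVE1 and MMRN1 were at -0.03 and 0.53 in rats 25 to 32, and neither was called.

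**Figure D4:**
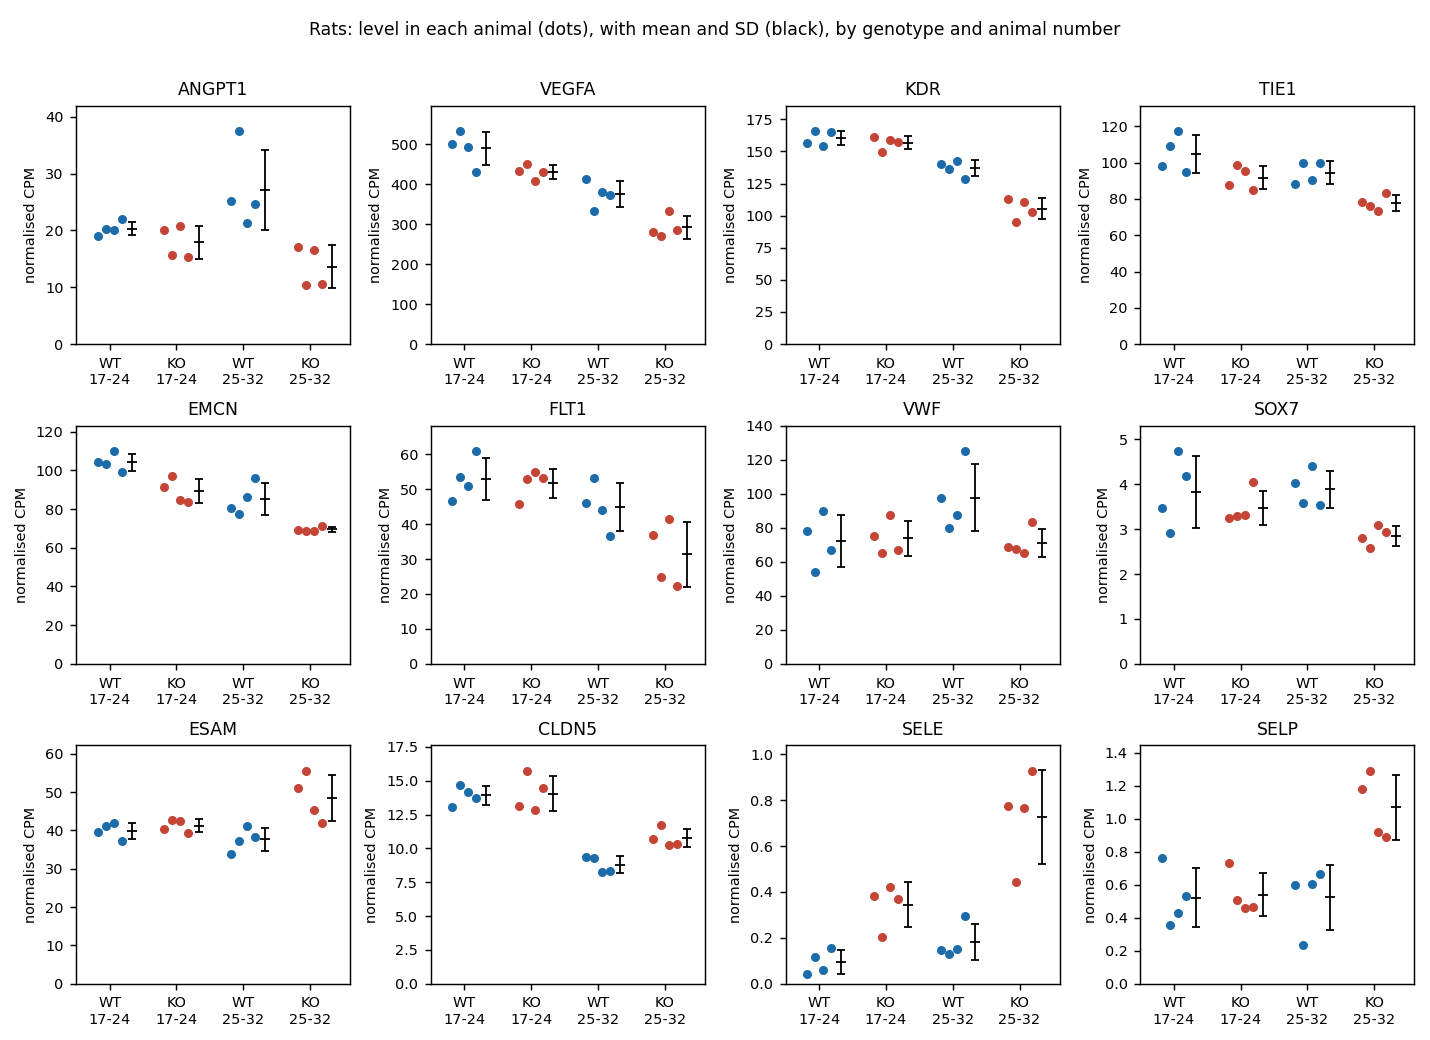
Normalised CPM of 12 genes in each rat (dots), with the mean and SD of 4 animals in black, by genotype and number range. On this scale the KO animals of rats 25 to 32 lie below all WT animals for ANGPT1, KDR, TIE1, EMCN and SOX7. They lie above them for ESAM, CLDN5, SELE and SELP. By library totals the genotypes overlap for KDR, TIE1, EMCN and SOX7.

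In rats 25 to 32, 9 of the 36 genes tested did not overlap between genotypes after TMM scaling, 5 lower and 4 higher. On the same scale 20.4% of all symbols were lower and 20.1% higher without overlap. Of the 5 lower, only ANGPT1 stayed without overlap by library totals. The 4 higher include SELE, which passed the filter only through the KO rats, so that its place in this count is a description. Of 35 genes tested in mice and in both rat ranges, 12 had a negative log2 fold change in all 3 comparisons (34.3%), against 22.4% of 11133 symbols, and 4 a positive one (11.4%), against 23.3%. The 12 were ANGPT1, APLN, CLEC14A, EHD3, EMCN, FLT1, KDR, NOTCH4, SOX7, SOX17, SOX18 and VEGFA. This count includes values near 0 and carries no test. The change with genotype did not differ between rats and mice for any of the 35 genes by limma on scaled values, against 2.25% of 11216 symbols, and 0 were called by edgeR on the reads. At an unadjusted p under 0.05 there were 3 of 35 (8.57%), against 17.1% of all symbols.

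The level of these genes in WT animals also differed between the number ranges. In WT rats 25 to 32, 11 of 37 genes were called lower than in WT rats 17 to 24 and none higher (29.7%), against 21.1% of 11839 symbols in either direction and 9.43% lower. The median log2 fold change was -0.21, against 0.01 over all symbols. The 11 were ANGPT2, CLDN5, DLL4, EHD3, EMCN, KDR, SOX17, SOX18, TAL1, TEK and VEGFA.

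ANGPT2 had the largest difference (-0.84 ± 0.15, adjusted p = 0.000785, edgeR), followed by CLDN5 (-0.66 ± 0.09), SOX17 (-0.57 ± 0.14) and EHD3 (-0.54 ± 0.11). VEGFA was 334 to 413 CPM against 432 to 533 CPM in WT rats of the lower numbers (-0.38 ± 0.08), and KDR 129 to 143 against 154 to 166 CPM (-0.23 ± 0.06). These ranges did not overlap. PLVAP (-0.01), ENG (0.01) and SOX7 (0.02) lay near 0, and VWF (0.43 ± 0.15, adjusted p = 0.0577) and ANGPT1 (0.42 ± 0.18, adjusted p = 0.121) lay above it. The calls of DLL4, SOX18 and TAL1 were lost in 6, 8 and 5 of 16 fits that left out 1 rat, in each case without WT rats 17, 21, 27 and 31. They were also lost without WT rats 19 and 29 for DLL4, WT rat 23 and KO rats 20, 24 and 28 for SOX18, and WT rat 19 for TAL1, and that of TEK was lost without WT rat 23.

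Markers of other cell types, inside and outside the glomerulus, also differed between these WT rats. Of 11 podocyte genes tested, 7 were lower in WT rats 25 to 32 and none was higher, and their summed level was 800 to 954 CPM, against 1116 to 1294 CPM in WT rats 17 to 24. PTPRO (-0.67 ± 0.07) and WT1 (-0.71 ± 0.10) are examples. Of 6 distal nephron and collecting duct genes tested, 5 were lower and 1 higher. Their list summed to 3360 to 4043 against 4201 to 4998 CPM. Of 15 pericyte, fibroblast and smooth muscle genes, 4 were lower and 1 higher, with sums of 375 to 424 against 440 to 460 CPM. Of 13 proximal tubule genes, 8 were higher and 2 lower, the lowest at -1.96 on the log2 scale. Their sum was higher, at 34278 to 38490 against 26246 to 29079 CPM. The macrophage and lymphocyte sums were higher as well. The part of these in the endothelial difference was not tested, and the number range cannot be told apart from anything else in which the animals differed.

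**Figure D5:**
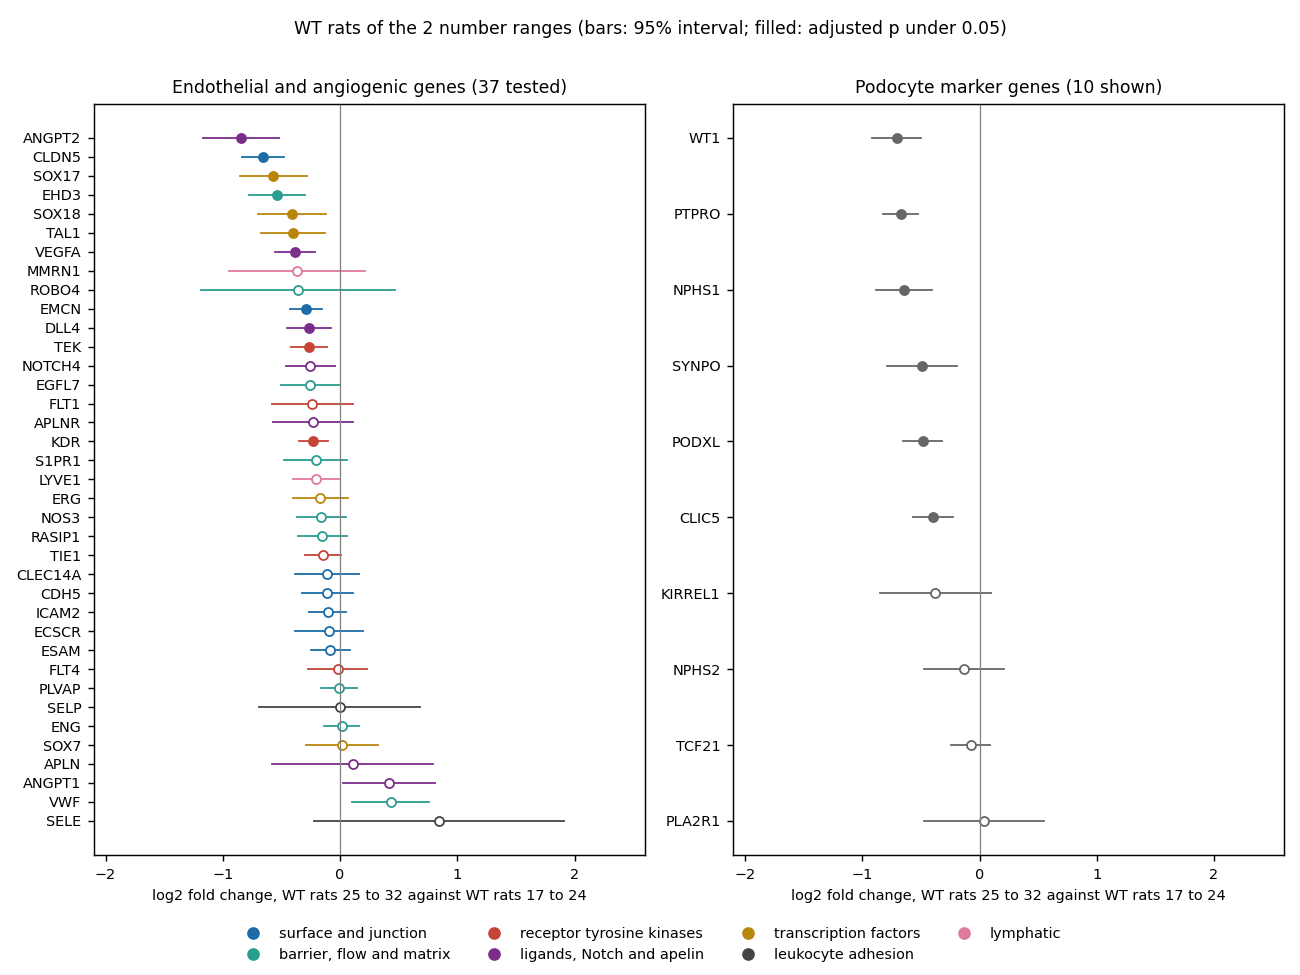
Log2 fold change in WT rats 25 to 32 against WT rats 17 to 24 (4 animals each) with 95% intervals, for the 37 endothelial and angiogenic genes tested (left, coloured by role) and 10 of the 11 podocyte genes tested (right; 1 that was called lower is not shown); filled dots have an adjusted p under 0.05. All 11 filled dots on the left and all 6 on the right lie below 0.

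Genes of activated endothelium were then read beside the list. Of 14 genes of activated endothelium and adhesion, 4 were higher and none lower in KO mice (28.6%, against 4.71% of all symbols). In KO rats 17 to 24, 3 were higher and 1 lower (28.6%, against 7.26%). In KO rats 25 to 32, 9 were higher and 2 lower (78.6%, against 43.8%). VCAM1, the vascular receptor for leukocyte integrins that tubule cells also make, rose by 1.21 ± 0.09 in mice, 0.59 ± 0.09 in rats 17 to 24 and 0.56 ± 0.08 in rats 25 to 32. ICAM1 rose by 0.40 ± 0.08, 0.45 ± 0.08 and 0.74 ± 0.07. The chemokine CCL2 rose by 1.89 ± 0.39 and endothelin 1 (EDN1) by 1.03 ± 0.26 in rats 25 to 32. The genes named all rose. Negative log2 fold changes numbered 2 in mice, 3 in rats 17 to 24 and 5 in rats 25 to 32. The lowest were -0.61, -0.23 and -0.36. The summed scaled value of the 14 overlapped in mice, at 12.02 to 12.39 in KO and 11.41 to 13.12 in WT animals. The sums also overlapped in rats 25 to 32, at 715 to 768 CPM in KO and 688 to 728 CPM in WT animals. They did not overlap in rats 17 to 24, at 679 to 726 against 633 to 651 CPM.

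The next 3 lists had smaller shares of called genes in rats 25 to 32 than the 43.8% of all symbols, so the counts are no result about these pathways. Of 17 further genes of the VEGF pathway, 2 were higher and 4 lower. Placental growth factor (PGF), which binds FLT1, rose by 1.63 ± 0.17, while the hypoxia factor EPAS1 fell by 0.52 and its partner ARNT by 0.41 on the log2 scale. Of 20 genes of angiopoietin, Notch, apelin and sphingosine signalling, 4 were higher and 1 lower. ANGPTL4, a lipase inhibitor related to the angiopoietins, rose by 2.39 ± 0.36 and the sphingosine receptor S1PR2 by 1.03 ± 0.11, and BMP4 fell by 0.59. In mice 1 gene of each list was called, SEMA3A (0.15 ± 0.03) and SVEP1 (0.40 ± 0.06), both higher.

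A second list of 22 endothelial genes gave 1 lower and none higher in mice, IGFBP3 (-0.82 ± 0.14). This is 4.55%, near the 4.71% of all symbols, so the count is no result about the list. In rats 25 to 32, 2 were higher and 2 lower of 13 tested (30.8%, against 43.8%). There KLF2 and KLF4, the factors induced by flow, rose by 0.51 ± 0.16 and 0.33 ± 0.12, and ARHGEF15 fell by 0.39 and EPAS1 by 0.52.

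Genes of other cell types were read by genotype in the same way. Of all symbols, 3.81% were called higher in mice, and 21.8% higher and 22.1% lower in rats 25 to 32. Macrophage genes were higher for 8 of 11 in mice and 10 of 11 in rats 25 to 32, with summed levels of 388 to 554 CPM in KO and 190 to 236 CPM in WT animals of that range. Lymphocyte genes were higher for 8 of 8 in rats 25 to 32, at 58.1 to 67.9 against 32.6 to 38.0 CPM. Genes of pericytes, fibroblasts and smooth muscle were higher for 4 of 17 in mice and 8 of 15 in rats 25 to 32, led by DCN (2.18 ± 0.07), LUM and COL3A1. Podocyte genes were lower for 3 of 11 in rats 25 to 32 (27.3%), at 651 to 804 CPM in KO and 800 to 954 CPM in WT animals. This share is near the 22.1% of all symbols called lower, so the count is no result about podocytes. The sum of the 38 endothelial and angiogenic genes was 1329 to 1430 CPM in KO and 1531 to 1626 CPM in WT rats of that range. Without VEGFA it was 1059 to 1121 against 1198 to 1235 CPM. These sums follow TMM scaling, and library totals would bring the genotypes of this range closer. In rats 17 to 24 the sums of the 38 overlapped, at 1689 to 1770 CPM in KO and 1765 to 1879 CPM in WT animals. The part of the other cell types in these differences was not tested.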

How the data were processed

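RNA from Ctns KO and Ctns WT kidneys (8 mice, 16 rats) was sequenced as stranded, poly(A)-selected libraries of 100-base read pairs. Per the labels, the authors used bcl2fastq 2.20, STAR 2.7.3, DESeq2 1.24.0 and R 3.6.1, with builds mm10 and rn5; the counter and annotation are not given in the sources used here. The deposited mouse table holds a signal in which each read number, raised by 0.5, was scaled to the 75th percentile of its library, and whole reads were recovered for 99.0% of values (tolerance 0.01); the main test nonetheless used the deposited values. The deposited rat table holds estimated counts, whole after 1/6 is subtracted in 97.7% of entries (same tolerance); the rest were rounded.

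Mouse values were tested with limma 3.58.1 (trend, robust) on log2(value + 0.1), without a filter. A pseudocount of 0.1 was used because many members are low. Rat counts were tested with edgeR 4.0.16 (TMM, filterByExpr, robust quasi-likelihood), in R 4.3.3, over 16 rats, within each number range, and in a 4-group model for the interaction and the WT ranges. DESeq2 1.42.0, other scalings, filters, a range covariate and leaving out each animal were alternatives. The species test used limma on scaled values. Fits were checked on simulated counts. The members and lists were chosen with earlier results of these data known. All members are named; per-animal values are given for members called in a genotype comparison and for VEGFA, KDR, FLT1, TEK, PECAM1 and CDH5, and at most 3 called genes per surrounding list and comparison. Every pair of libraries in a group differed by more than counting error, the least chi-square over its degrees of freedom being 13.3 for mice and 9.25 for rats. Where nothing ties animals to litters, p-values measure the spread between these animals. Counting strand was not stated, so reads from antisense genes cannot be told apart. Sequences are from RefSeq (GRCr8), not the rat table's build. Some genes of the surrounding lists are counted but not reported here by name.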

Additional observations from a re-analysis of the deposited data

Results flagged for a closer look

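In 156 groups of members' levels, 5 animals stood apart from their group by Dixon's criterion, where chance alone gives about 1 in 20 groups. ANGPT1 was 37.4 CPM in WT rat 27, above the 19.1 to 25.1 CPM of the other 7 WT rats; without this rat the fall of ANGPT1 over all rats was still called. ICAM2 was 18.2 CPM in the same WT rat 27, below 21.5 to 24.2 CPM in the rest. SELE was 0.297 CPM in WT rat 31, a value from 8 reads, against 0.0403 to 0.157 CPM in the rest. ECSCR had a scaled value of 0.155 in WT mouse 2, against 0.134 to 0.136 in the other 3. EMCN had 1.56 in KO mouse 3, against 1.71 to 1.73 in the other 3.

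The change of KDR with genotype differed between the number ranges of the rats, with a log2 difference of -0.34, rats 25 to 32 minus rats 17 to 24. What the ranges stand for is not given in the labels.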

How the results depend on the processing

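Members called in mice numbered 3 with the filter, 4 with edgeR, 3 with log2(CPM + 1) (CD34, ECSCR and RASIP1, all higher) and 0 to 1 when 1 mouse was left out (ANGPT1 without WT mouse 1, CD34 without WT mouse 2). The filter, edgeR and log2(CPM + 1) fits called 8.79%, 8.91% and 6.01% of the symbols they tested. In all 16 rats the members called numbered 5 with DESeq2, against 27.7% of all symbols, and 2 to 5 leaving out 1 rat. With the range as a covariate they numbered 8, against 38.9% of all symbols. ESAM and SELE were higher there, and ANGPT1, EMCN, KDR, SOX7, TIE1 and VEGFA lower. SELE was below the filter on low counts in the reported fit of all 16 rats. Without TMM factors ESAM and SELP were called higher and ANGPT1 lower, against 28.8% of all symbols. In rats 17 to 24 they numbered 2 without a filter and in the 4-group fit, 0 without TMM factors and 0 to 3 leaving out 1 rat. In rats 25 to 32 they numbered 6 without TMM factors and 8 to 13 leaving out 1 rat. For the difference between ranges they numbered 3 with DESeq2, 2 without TMM factors (CLDN5 and ESAM, both higher) and 1 to 4 leaving out 1 rat, and for the WT ranges 17 without TMM factors and 8 to 12. For the species difference they stayed at 0 in every fit. Fits without TMM factors were chosen after seeing the data; they called 2656 symbols for the difference between ranges. Leaving out 1 animal, all symbols called ran from 412 to 790 in mice, 2536 to 3478 in rats, 504 to 930 in rats 17 to 24, 3946 to 5242 in rats 25 to 32, 1010 to 2392 for their difference, 1852 to 2648 for the WT ranges and 124 to 378 for the species difference. By library totals the split of called symbols, higher and lower, was 2644 and 687 in all rats (1760 and 1420 as reported), 4252 and 1135 in rats 25 to 32 (2534 and 2566), 2309 and 347 for the difference between ranges (841 and 904) and 703 and 2450 for the WT ranges (1386 and 1117). In mice edgeR gave 815 and 383 and log2(CPM + 1) 992 and 53, against 662 and 157.

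No member called in a comparison reversed under any setting; the causes of the other moves were not tested. Without TMM factors the median log2 fold change over the members became 0.11 in rats 25 to 32 and -0.34 for the WT ranges. No paired analysis was possible because the genotypes share no animal numbers. Depth limits SELE, SELP and ROBO4 in rats and LYVE1 and the selectins in mice.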
